A study of Mus musculus with 32 samples.

Results

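The change in RNA that accompanied the ENL T1 mutation in whole embryonic kidneys was compared between 2 Cre lines. One line switches the mutant on in the stroma and the other in the nephron progenitors. The comparison took 10 of the 32 libraries of the series, chosen by tissue and genotype labels alone, all from whole mouse kidneys at E18.5, shortly before birth. Kidneys of genotype Foxd1GC/+;EnlT1/+ (Foxd1 T1, 3 libraries) were set against Foxd1GC/+;Enl+/+ (Foxd1 WT, 3 libraries). Those of genotype Six2-TGCtg/+;EnlT1/+ (Six2 T1, 2 libraries) were set against Six2-TGCtg/+;Enl+/+ (Six2 WT, 2 libraries). Every control therefore also carried its Cre allele. The Foxd1-GC allele is a knock-in that takes the place of 1 copy of Foxd1, so that all 6 Foxd1 kidneys had a single intact copy. The Six2-TGC allele is a bacterial artificial chromosome transgene that also carries Six3. T1 is a small insertion in the YEATS domain of ENL, here heterozygous. T3 is another ENL mutation, a small deletion in the same domain, and its Six2-TGC kidneys entered alternative fits only. The Cre line, the sequencing run and the read length went together, so a level in one line cannot be set against the other without them, whereas each T1 effect was measured within its own line.

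ENL, encoded by Mllt1, is a reader of acylated histone tails that brings the transcription elongation machinery to genes, and insertions in its YEATS domain recur in Wilms tumor, a childhood kidney cancer. In the developing kidney the Six2-positive cap mesenchyme holds the nephron progenitors, which give rise to podocytes and to the tubule from its proximal to its distal part. The Foxd1-positive stroma surrounds them and gives rise to interstitial cells, mesangial cells, pericytes, vascular smooth muscle and the renin cells. The ureteric bud, which becomes the collecting duct tree, comes from neither lineage and exchanges signals with both. The question of the comparison was which changes in the whole kidney depended on the lineage that carried the mutant.

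Total counts ran from 67137194 to 79343015 per Foxd1 library and from 116445512 to 157266455 per Six2 library. Levels are given as CPM, counts scaled to library size, and 3 counts correspond to between 0.0188 and 0.0448 CPM. Nothing in the labels states that libraries came from separate litters, so p-values measure the spread between these libraries. By Y-linked RNA, summed over 4 genes, the 6 Foxd1 libraries and Six2 WT replicate 2 stood at 0 CPM and the other 3 Six2 libraries between 269 and 276 CPM. The Six2 comparison thus set 2 male T1 kidneys against 1 male and 1 female control. Skeletal muscle RNA was summed over 10 genes, of which 9 were tested. It reached 138 CPM in Foxd1 T1 replicate 1 and 67.8 CPM in Six2 WT replicate 2, against 10 to 34.3 CPM elsewhere. The chi-square per degree of freedom between the counts of replicates was 170.7 for the 2 Six2 WT libraries and 7.83 to 24.0 for the other pairs, although log2 levels of every pair correlated at 0.9887 to 0.9946. Without Foxd1 T1 replicate 1 and Six2 WT replicate 2 together, a setting chosen after seeing the data, 1792 genes differed in T1 effect between the lines, 1351 of them among the 1910 described next. In bulk tissue, fewer cells of a type and less RNA per cell cannot be told apart.

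The alleles were read first. Mllt1 stood at 123, 126 and 120 CPM in Foxd1 WT and at 104, 99.2 and 102 CPM in Foxd1 T1. In the Six2 line it stood at 85.4 and 104 CPM in WT and at 81.2 and 79.0 CPM in T1. Its log2 fold change was -0.27 ± 0.07 (SE, edgeR adjusted p = 0.0095) in Foxd1 kidneys and -0.24 ± 0.08 (adjusted p = 0.060) in Six2 kidneys, and counts per gene do not separate mutant from normal transcripts. Six3, the passenger of the transgene, was at 12.1 to 19.2 CPM in the 4 Six2 libraries and at 0 counts in 5 of the 6 Foxd1 libraries. Six3 showed no called T1 effect within the Six2 line (adjusted p = 0.15).

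Of 22826 genes tested, 1910 (8.37%) had a T1 effect that differed between the Cre lines by the interaction term of a single edgeR quasi-likelihood fit at an adjusted p under 0.05. The difference is given throughout as the log2 fold change in Foxd1 kidneys minus that in Six2 kidneys. It was positive for 1100 genes (4.82%) and negative for 810 (3.55%). Within a line a gene was called when its adjusted p was under 0.05 and its fold change above 1.5. Foxd1 T1 kidneys had 599 genes up (2.62%) and 1596 down (6.99%), and Six2 T1 kidneys had 677 up (2.97%) and 1173 down (5.14%). The overlap was 170 genes up in both lines, 28.4% of the Foxd1 and 25.1% of the Six2 list, and 529 down in both, 33.1% and 45.1%. Across all tested genes the log2 fold changes of the 2 lines, which share no library, had a Pearson correlation of 0.26 and a Spearman correlation of 0.27, described here without a test because genes are not independent.

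The genes that differed were sorted by what each line showed on its own. The largest classes called in one line were 325 genes down and 211 up in Six2 kidneys alone, and 234 down and 130 up in Foxd1 kidneys alone. A further 187 fell in both lines but more in Six2, 26 rose in both but more in Six2, 9 fell in both but more in Foxd1 and 5 rose in both but more in Foxd1. In 19 genes the effect was up in Foxd1 and down in Six2, and in 26 it was the reverse. For 434 genes with a positive and 304 with a negative difference, neither line met both of its own thresholds. T1 and WT libraries did not overlap for 42.9% of all tested genes in Foxd1 and for 54% in Six2 kidneys, so separation of the libraries alone carries little weight at these sample numbers.

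**Figure D1:**
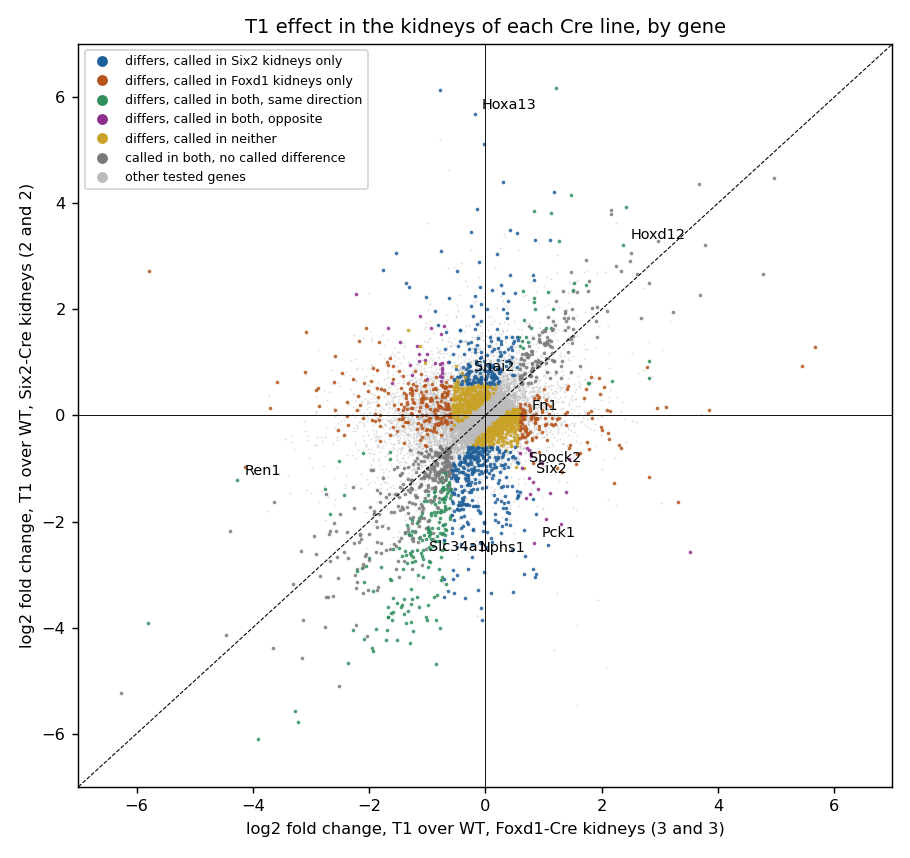
Each point is a tested gene, placed by its log2 fold change (T1 over WT) in Foxd1-Cre kidneys (x axis) and in Six2-Cre kidneys (y axis), colored by class; the dashed line marks equal effects. Podocyte genes such as Nphs1 lie near the vertical axis, far below 0, Ren1 lies far to the left, and Pck1 and Six2 lie at the lower right, up in one line and down in the other. The 1060 genes with a group at or under 3 counts are not drawn, and 1 gene lies outside the axes.

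Among genes of nephron progenitor self-renewal, those that passed the test in Foxd1 kidneys rose and those that passed in Six2 kidneys fell. Of 17 genes on this list, 13 had a T1 effect that was higher in Foxd1 than in Six2 kidneys, and none the reverse. In Foxd1 kidneys 7 rose and none fell. In Six2 kidneys none rose and 8 fell. The median log2 fold change of the list was 0.51 in Foxd1 and -0.55 in Six2, beside -0.0051 and 0.0010 over all tested genes. The count of 13 lay between 11 and 14 in every alternative fit, and was 12 without the 2 muscle-rich libraries. Summed over the list, Foxd1 WT libraries held 1060 to 1120 CPM and Foxd1 T1 libraries 1420 to 1650 CPM, and Six2 WT libraries held 720 and 861 CPM and Six2 T1 libraries 656 and 661 CPM.

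Six2, the transcription factor that keeps progenitors from differentiating, was at 137, 122.5 and 118 CPM in Foxd1 WT and at 242, 196 and 196 CPM in Foxd1 T1. In the Six2 line the levels were 37.8 and 45.7 CPM in WT and 18.2 and 18.6 CPM in T1. The T1 libraries were thus all above their controls in the stromal line and all below them in the progenitor line. The log2 fold change was 0.75 ± 0.09 in Foxd1 (adjusted p = 8.27e-05) and -1.18 ± 0.12 in Six2 (adjusted p = 6.47e-06), and the difference of 1.93 had a 95% confidence interval of 1.61 to 2.25 (adjusted p = 5.98e-06).

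Spock2, a secreted proteoglycan of the cap mesenchyme, went from 242, 223 and 235 CPM to 399, 335 and 353 CPM in Foxd1 kidneys, and from 169.5 and 210.5 CPM to 96.4 and 95.8 CPM in Six2 kidneys (difference 1.62 ± 0.13, adjusted p = 9.35e-06). Osr1, a transcription factor of the earliest renal mesenchyme, rose from 17.5, 22.3 and 17.9 CPM to 36.8, 31.2 and 30.9 CPM in the stromal line and fell from 11.5 and 13.5 CPM to 7.80 and 6.92 CPM in the progenitor line. Its difference was 1.54 ± 0.17 (adjusted p = 9.57e-05). Eya1, a co-activator and phosphatase that progenitors need, and Crym, a thyroid hormone binding protein, had the same pair of directions, with differences of 1.33 ± 0.21 (adjusted p = 0.0015) and 1.31 ± 0.13 (adjusted p = 4.79e-05). Six2, Spock2, Osr1, Eya1 and Crym all passed the test in both lines.

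Other members were called in one line. Meox2, a homeobox gene, rose 1.75-fold in Foxd1 kidneys (adjusted p = 0.00027) and stood at 0.73 of its control in Six2 kidneys (adjusted p = 0.056). Phf19, a subunit of the Polycomb complex, fell to 0.575 of its control in Six2 kidneys (adjusted p = 5.02e-05) and its rise to 1.42-fold in Foxd1 kidneys was under the fold threshold. Gdnf, the ligand that makes the ureteric bud branch, fell to 0.629 of its control in Six2 kidneys (adjusted p = 8.14e-05), whereas its ratio in Foxd1 kidneys was 0.985 (adjusted p = 0.87), and the difference passed (0.65 ± 0.11, adjusted p = 0.0026). The 4 members whose difference did not pass were Dpf3, Itga8, Uncx and Sall1. Meox1, Traf1 and Rspo1 differed by 0.92, 0.86 and 0.51, and 1 called member lies on the X chromosome. Rspo1 missed the threshold in 13 of 22 alternatives, with a difference of 0.26 to 0.66 and an adjusted p of up to 0.206.

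The wild-type starting points differed as well. Six2 itself was 126 CPM on average in Foxd1 WT and 41.7 CPM in Six2 WT. Over all genes, 2758 (12.1%) were higher and 3030 (13.3%) lower in Foxd1 WT than in Six2 WT kidneys, and 441 of the 1910 genes that differed in T1 effect were among them (23.1%). Cre allele, run and read length cannot be told apart in that contrast. Sex differed as well, since by Y-linked RNA all Foxd1 WT libraries were female and Six2 WT held 1 male and 1 female library.

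**Figure D2:**
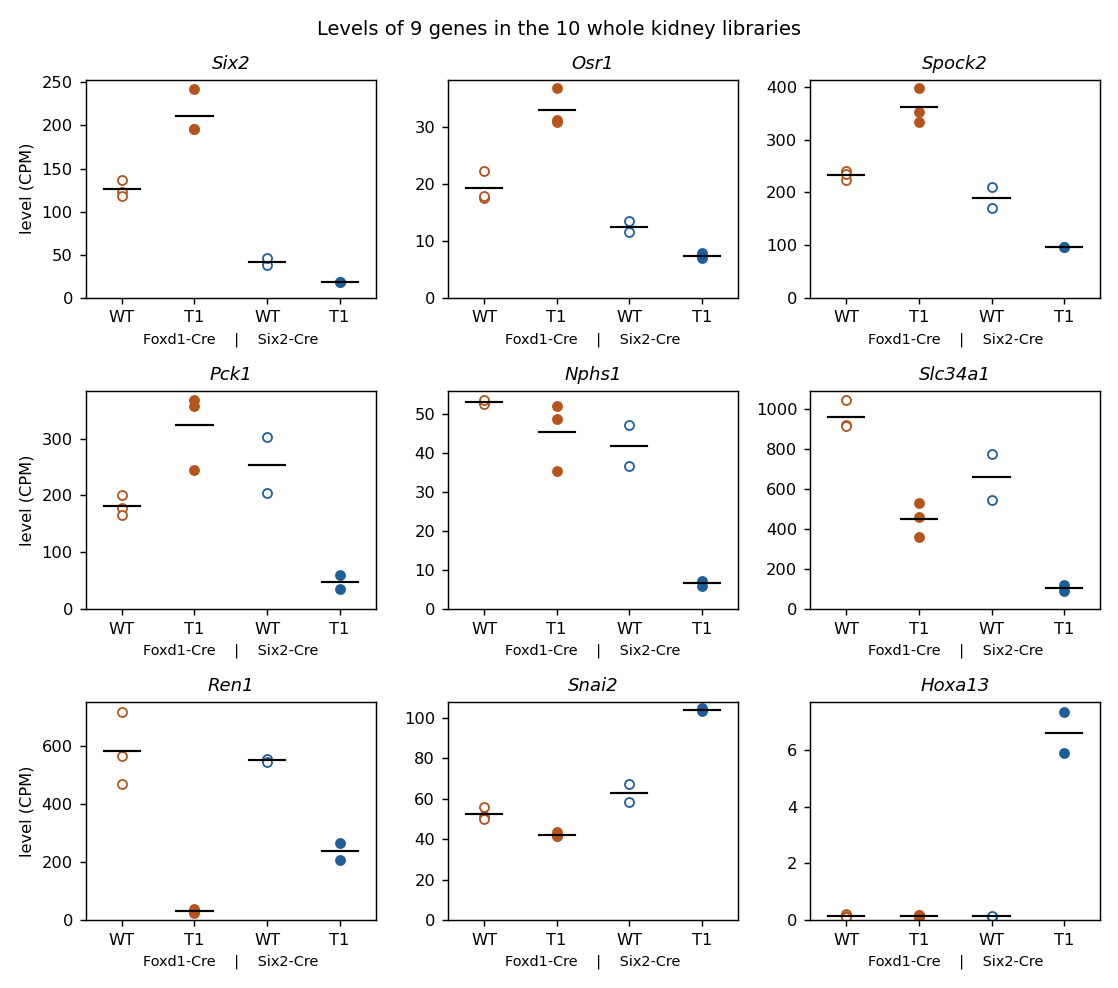
Level in CPM (y axis, from 0) of 9 genes in each of the 10 libraries; open circles are WT, filled circles T1, orange the Foxd1-Cre and blue the Six2-Cre line, and bars are group means. Six2, Osr1, Spock2 and Pck1 were up in Foxd1 T1 and down in Six2 T1, Nphs1 fell in Six2 T1 only, Ren1 fell most in Foxd1 T1, and Hoxa13 was high in Six2 T1 only.

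The bases just before the start sites of 4 genes are shown as examples of 3 patterns, with Six2 and Pck1 for opposite effects, Ren1 for a larger fall in Foxd1 kidneys, and Hoxa13 for a rise in Six2 kidneys alone. Each run is the 250 bases upstream of the RefSeq start, 5′ to 3′ on the gene's strand, in GRCm38.p6, at chr17:85688255-85688504 (minus) for Six2, chr2:173152823-173153072 (plus) for Pck1, chr1:133350424-133350673 (plus) for Ren1 and chr6:52260881-52261130 (minus) for Hoxa13. Capitals mark matches, on either strand, to the 4 motifs spelled out after them.
Six2: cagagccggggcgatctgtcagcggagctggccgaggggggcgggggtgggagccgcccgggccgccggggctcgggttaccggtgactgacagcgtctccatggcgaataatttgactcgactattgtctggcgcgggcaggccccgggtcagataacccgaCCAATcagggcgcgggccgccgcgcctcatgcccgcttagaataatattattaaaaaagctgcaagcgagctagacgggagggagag
Pck1: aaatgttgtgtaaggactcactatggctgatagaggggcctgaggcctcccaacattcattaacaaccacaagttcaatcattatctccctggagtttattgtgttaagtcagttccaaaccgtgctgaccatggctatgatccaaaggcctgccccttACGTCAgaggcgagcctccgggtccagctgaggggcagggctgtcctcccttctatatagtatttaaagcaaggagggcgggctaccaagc
Ren1: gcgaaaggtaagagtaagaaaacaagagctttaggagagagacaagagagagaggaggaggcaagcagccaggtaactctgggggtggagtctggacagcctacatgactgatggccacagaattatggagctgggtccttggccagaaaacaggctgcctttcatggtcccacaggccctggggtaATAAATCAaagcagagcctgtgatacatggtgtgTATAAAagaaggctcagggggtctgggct
Hoxa13: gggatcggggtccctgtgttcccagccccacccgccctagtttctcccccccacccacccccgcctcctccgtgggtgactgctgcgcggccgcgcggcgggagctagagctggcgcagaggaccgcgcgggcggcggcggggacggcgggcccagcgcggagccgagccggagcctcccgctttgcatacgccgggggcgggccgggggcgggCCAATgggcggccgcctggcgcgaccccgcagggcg
TATAAA is the letters of a TATA box, CCAAT those of a CCAAT box, ACGTCA the core of a cAMP response element and TGATTTAT a joint HOX and PBX site. Among the same windows of 13854 tested genes, 7.62% held TATAAA, 35.5% CCAAT, 8.99% ACGTCA and 0.491% TGATTTAT. Ren1 held TATAAA 29 bases and, on the reverse strand, TGATTTAT 63 bases before the start. Pck1 held ACGTCA at 91 bases, Six2 CCAAT at 87 bases and Hoxa13 CCAAT at 36 bases before the start. These matches describe the letters only.

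Most podocyte genes fell in Six2 kidneys, and few passed the test in Foxd1 kidneys. Podocytes are the cells whose interlocking foot processes form the glomerular filter. Of 20 podocyte markers, 12 fell and none rose in Six2 T1, beside 5.14% and 2.97% of all tested genes. In Foxd1 T1 3 fell and 1 rose, beside 6.99% and 2.62%. The T1 effect differed for 11, all higher in Foxd1 (8 to 13 across the alternative fits, 13 without the 2 muscle-rich libraries). The median log2 fold change was -0.79 in Six2 and -0.16 in Foxd1 kidneys.

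Nphs1, which encodes nephrin of the slit diaphragm, was at 53.0, 52.6 and 53.5 CPM in Foxd1 WT, 35.5, 48.8 and 52.0 CPM in Foxd1 T1, 36.5 and 47.2 CPM in Six2 WT and 5.99 and 7.19 CPM in Six2 T1. It fell to 0.157 of its control in Six2 kidneys (adjusted p = 1.01e-07), and its ratio in Foxd1 kidneys was 0.857 (adjusted p = 0.21). The difference on the log2 scale was 2.45, with a 95% confidence interval of 2.01 to 2.89 (adjusted p = 1.16e-05).

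Podxl, the sialomucin that keeps foot processes apart, fell to 0.308 of its control in Six2 kidneys and stood at 0.920 in Foxd1 kidneys (difference 1.58 ± 0.16, adjusted p = 5.15e-05). Ptpro, a receptor phosphatase of the podocyte surface, stood at 0.276 and 1.12 of its control (difference 2.02 ± 0.17, adjusted p = 1.16e-05).

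Some podocyte genes changed in Foxd1 kidneys too. Synpo, the actin-binding protein of foot processes, stood at 0.702 of its control in Foxd1 and 0.457 in Six2 kidneys. Col4a3, a chain of the mature glomerular basement membrane collagen, fell to 0.596 of its control in Foxd1 (adjusted p = 0.00055) and to 0.337 in Six2 kidneys (adjusted p = 3.44e-06), while its partner Col4a4 fell in both lines with no called difference (-0.12, adjusted p = 0.73). Robo2, a guidance receptor also expressed in the nephrogenic zone, rose 1.53-fold in Foxd1 kidneys (adjusted p = 0.00027). Wt1, shared by podocytes and progenitors, differed by 0.30 with an adjusted p of 0.15.

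Proximal tubule genes fell in both lines and fell further in Six2 kidneys. The proximal tubule takes up most of the filtered solutes. All 20 markers fell in Six2 T1, and in Foxd1 T1 15 fell and 1 rose. The T1 effect differed for 16, all higher in Foxd1 (13 to 19 across the alternative fits, 18 without the 2 muscle-rich libraries). The median log2 fold change was -2.37 in Six2 and -0.95 in Foxd1 kidneys. Summed over the list, WT libraries held 4550 to 4860 CPM in the Foxd1 and 4560 and 3860 CPM in the Six2 line, against 2210 to 2900 CPM in Foxd1 T1 and 664 and 854 CPM in Six2 T1.

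Slc34a1, the phosphate transporter of the brush border, was at 924, 1045 and 917 CPM in Foxd1 WT and at 360, 531 and 459 CPM in Foxd1 T1. In the Six2 line it was at 777 and 546 CPM in WT and at 91.1 and 119 CPM in T1. The libraries were apart in both lines, and the fall was to 0.468 of the control in Foxd1 and to 0.159 in Six2 kidneys (difference 1.56 ± 0.24, adjusted p = 0.0011). The endocytic receptors showed the same order: Lrp2 (megalin) fell to 0.514 and 0.147 of its control (difference 1.80 ± 0.18, adjusted p = 4.15e-05) and Cubn (cubilin) to 0.545 and 0.0935 (difference 2.54 ± 0.19, adjusted p = 5.19e-06). Hnf4a, the transcription factor that directs proximal tubule maturation, stood at 0.837 of its control in Foxd1 and at 0.369 in Six2 kidneys (difference 1.18 ± 0.12, adjusted p = 4.83e-05).

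Pck1, the rate-limiting enzyme of gluconeogenesis, went the opposite way in the stromal line. Its levels were 178, 200 and 166 CPM in Foxd1 WT and 245, 367 and 358 CPM in Foxd1 T1. In the Six2 line they were 302 and 204 CPM in WT and 35.8 and 60.3 CPM in T1. Every Foxd1 T1 library was above its controls and every Six2 T1 library below them. The log2 fold change was 0.84 ± 0.19 (adjusted p = 0.0064) in Foxd1 and -2.40 ± 0.25 (adjusted p = 1e-05) in Six2 kidneys, a difference of 3.23 with a 95% confidence interval of 2.57 to 3.90 (adjusted p = 3.07e-05). Among the other markers, Keg1 was the only one with a positive value in Foxd1 kidneys, at 1.27 of its control (adjusted p = 0.012, under the fold threshold), against 0.528 in Six2 kidneys (adjusted p = 3.55e-05).

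Solute carriers and cytochromes P450, large families expressed along the whole nephron, also had more called differences higher in Foxd1 than in Six2. Of 315 solute carrier genes, 61 had a higher effect in Foxd1 and 7 in Six2, beside 4.82% and 3.55% of all tested genes. In Foxd1 kidneys 68 fell and 8 rose, beside 6.99% and 2.62% of all tested genes. In Six2 kidneys 96 fell and 10 rose, beside 5.14% and 2.97%. Of 46 cytochrome P450 genes, 10 had a higher effect in Foxd1 and 2 in Six2. With or without a call, 19 of the 46 differences were positive and 27 negative. Cyp27b1, which makes active vitamin D in the proximal tubule, was among the 5 largest differences of genes that fell in both lines. It went from 186, 188 and 181 CPM to 59.5, 93.6 and 73.2 CPM in Foxd1, and from 117 and 71.3 CPM to 3.52 and 6.14 CPM in Six2 kidneys (difference 3.00 ± 0.33, adjusted p = 7.97e-05). Mep1b, the beta subunit of the brush border protease meprin, and the amino acid transporter Slc7a12 were also among these 5, with differences of 3.01 ± 0.17 and 2.85 ± 0.28.

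**Figure D3:**
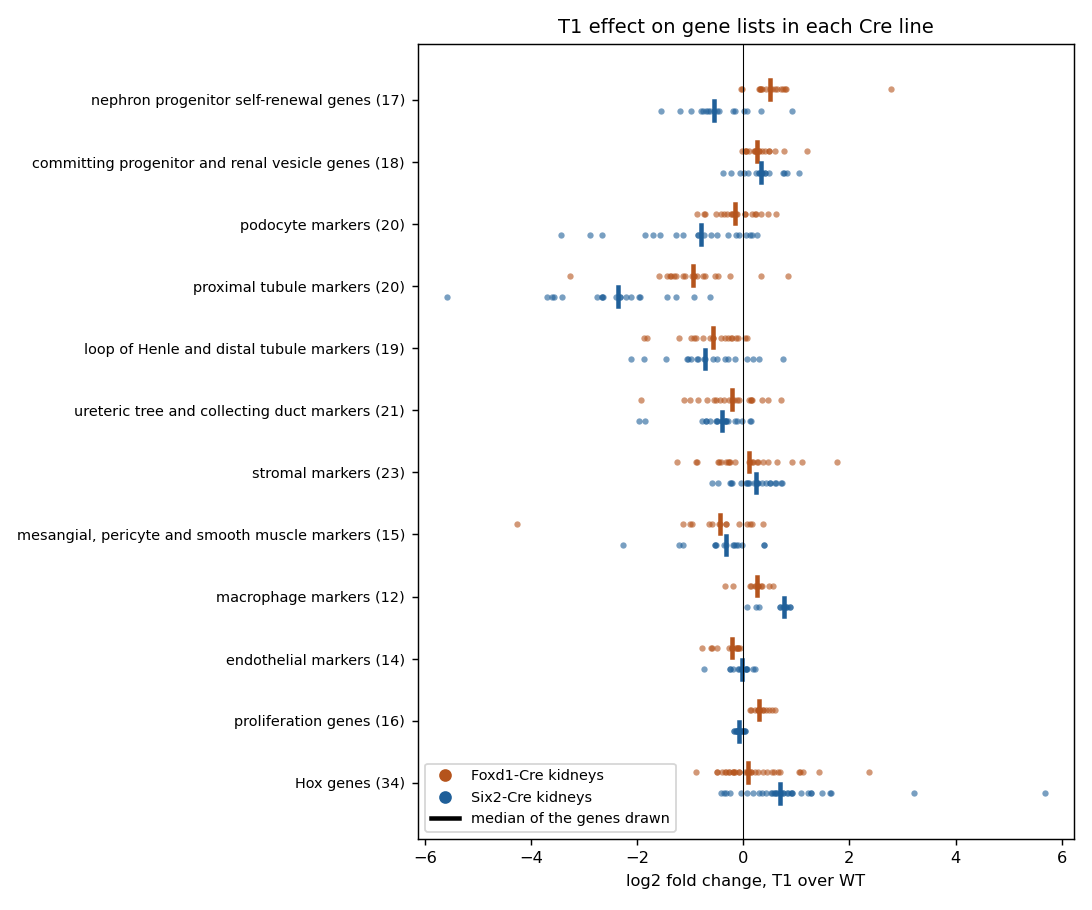
Each dot is a gene of the list named at the left (number of genes drawn in parentheses), placed by its log2 fold change, T1 over WT, in Foxd1-Cre (orange) and Six2-Cre kidneys (blue); the vertical bars are medians. The medians of the progenitor self-renewal genes lie on opposite sides of 0 (0.51 and -0.55), podocyte and proximal tubule genes lie further down in Six2 kidneys, and loop of Henle and committing progenitor genes overlap.

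Some markers of the distal segments fell in each line. Among 19 markers of the loop of Henle and distal tubule, 8 fell in Foxd1 and 10 in Six2 kidneys, with 1 up in Six2, and the T1 effect differed for 5, with 3 higher in Foxd1 and 2 in Six2. The list medians were -0.57 and -0.72, and the 5 differences of 19 stand beside 8.37% of all genes. Umod, the major protein of normal urine, fell to 0.523 of its control in Foxd1 and to 0.272 in Six2 kidneys (difference 0.95 ± 0.22, adjusted p = 0.017). Sim2, a transcription factor gene on the list, rose 1.67-fold in Six2 kidneys (adjusted p = 7.23e-05) against a ratio of 1.02 in Foxd1 kidneys (difference -0.72 ± 0.12, adjusted p = 0.0024).

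Of 18 genes of committing progenitors and renal vesicles, the first epithelial stage of the nephron, 3 rose in Foxd1 and 4 in Six2 kidneys. Among all tested genes 2.62% and 2.97% rose. None of the 18 fell. The T1 effect differed for 1 of the 18, beside 8.37% of all tested genes. That gene was Sfrp2, a secreted modulator of Wnt signaling, which stood at 1.32 of its control in Foxd1 and rose 2.06-fold in Six2 kidneys (difference -0.64 ± 0.15, adjusted p = 0.019). This count depended on the libraries. The number with a higher effect in Six2 went from 1 to 7 without the 2 muscle-rich libraries, to 6 without Six2 WT replicate 2 alone and to 0 without either Six2 T1 library, and the number higher in Foxd1 went from 0 to 5 without Six2 WT replicate 1. Wnt4, the signal that drives progenitors to become epithelium, was at 101.4 to 106 CPM in Foxd1 WT and 140 to 151 CPM in Foxd1 T1, and at 95.4 and 125 CPM in Six2 WT and 181 and 191 CPM in Six2 T1. Its difference of -0.26 had a 95% confidence interval of -0.54 to 0.013 (adjusted p = 0.24).

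Ureteric genes, which belong to neither lineage, included some that differed. Of 21 markers of the ureteric tree and collecting duct, 5 fell and 1 rose in Foxd1, beside 6.99% and 2.62% of all tested genes. In Six2 kidneys 6 fell and none rose, beside 5.14% and 2.97%. The T1 effect differed for 5, beside 8.37%, with Ret, Etv4, Etv5 and Krt5 higher in Foxd1 and Aqp4 higher in Six2. Ret, the GDNF receptor of the ureteric tip, was at 42.8, 40.0 and 43.7 CPM in Foxd1 WT, 72.1, 67.0 and 69.0 CPM in Foxd1 T1, 63.1 and 79.6 CPM in Six2 WT and 56.3 and 57.5 CPM in Six2 T1. It rose 1.65-fold in Foxd1 kidneys (adjusted p = 2.45e-05) and its ratio in Six2 kidneys was 0.797 (adjusted p = 0.026), and the difference was 1.05 ± 0.12 (adjusted p = 0.00012). The RET target genes Etv4 and Etv5 went with it, with differences of 0.87 ± 0.10 (adjusted p = 0.00014) and 0.62 ± 0.10 (adjusted p = 0.0018). Aqp2, the vasopressin-regulated water channel of the collecting duct, fell in both lines, from 287, 432 and 334 CPM to 100.7, 86.4 and 91.5 CPM in Foxd1 and from 114 and 152 CPM to 31.0 and 42.6 CPM in Six2 kidneys. Its difference was -0.06, with a 95% confidence interval of -0.57 to 0.44.

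Renin had the largest difference of the 9 genes that fell in both lines and further in the stromal line. Ren1 encodes renin, the protease made by juxtaglomerular cells, which descend from Foxd1-positive stroma. It was at 564, 717 and 469 CPM in Foxd1 WT and at 24.1, 38.6 and 28.1 CPM in Foxd1 T1. In the Six2 line it was at 555 and 545.5 CPM in WT and at 208 and 264.5 CPM in T1. The T1 libraries were below their controls in both lines, by a log2 fold change of -4.27 ± 0.19 in Foxd1 (adjusted p = 2.26e-08) and -1.22 ± 0.20 in Six2 kidneys (adjusted p = 0.00072). The difference of -3.05 had a 95% confidence interval of -3.62 to -2.48 (adjusted p = 1.5e-05). Akr1b7, an aldose reductase relative also made by renin cells, fell to 0.175 of its control in Foxd1 and to 0.548 in Six2 kidneys (difference -1.64 ± 0.19, adjusted p = 0.00015), although 27.2% of its exon length overlaps another gene.

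Mesangial, pericyte and smooth muscle markers were split. Of the 15 on the list, Ren1 among them, 6 fell in Foxd1 and 3 in Six2 kidneys, beside 6.99% and 5.14% of all tested genes. None rose. The T1 effect differed for 6, beside 8.37%, 4 with a higher effect in Six2 and 2 in Foxd1. Kcnj8 and Abcc9, the channel and receptor subunits of the potassium channel of pericytes, stood at 0.742 and 0.795 of their controls in Foxd1 and both at 1.31 in Six2 kidneys, and both differences passed (adjusted p = 0.0051 and 0.017). Actg2, smooth muscle gamma actin, fell in both lines and further in Six2, to 0.509 and 0.208 of its control (difference 1.29 ± 0.19, adjusted p = 0.0008). Des, encoding desmin, stood at 1.29 in Foxd1 and 0.698 in Six2 kidneys (difference 0.89 ± 0.13, adjusted p = 0.00083).

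Stromal genes differed in both directions. Of 23 stromal markers 13 had a T1 effect that depended on the line, 5 higher in Foxd1 and 8 higher in Six2 (5 and 12 without the 2 muscle-rich libraries). Over all tested genes the effect was higher in Foxd1 for 4.82% and in Six2 for 3.55%. Snai2, a repressor of epithelial genes, was at 51.7, 49.99 and 56.1 CPM in Foxd1 WT, 41.5, 43.7 and 41.5 CPM in Foxd1 T1, 67.3 and 58.4 CPM in Six2 WT and 103.5 and 105 CPM in Six2 T1. It stood at 0.803 of its control in the stromal line and rose 1.66-fold in the progenitor line (difference -1.05, 95% confidence interval -1.26 to -0.83, adjusted p = 3.09e-05). Alx1, Tcf21 and Pdgfra also had higher effects in Six2 kidneys, with differences of -0.97 ± 0.10, -0.92 ± 0.13 and -0.44 ± 0.12. Alx1 and Tcf21 passed in all 22 alternatives, and Pdgfra missed the threshold in 8, with a difference of -0.63 to -0.28 and an adjusted p of up to 0.217 without Six2 T1 replicate 2. Tcf21, which stroma and podocytes need, stood at 0.752 of its control in Foxd1 and 1.42 in Six2 kidneys. Clca3a1 fell to 0.422 of its control in Foxd1 kidneys (adjusted p = 1.62e-06) and stood at 1.19 in Six2 kidneys (adjusted p = 0.16), the largest difference of the list (-1.49 ± 0.14, adjusted p = 3.07e-05).

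On the other side were Nts, Lum, Meis2, Tnc and Foxd1. Nts, the neurotensin precursor, went from 13.9, 14.96 and 13.7 CPM to 47.0, 48.3 and 48.3 CPM in Foxd1 and from 25.1 and 23.7 CPM to 37.4 and 37.5 CPM in Six2 kidneys (difference 1.14 ± 0.09, adjusted p = 8.26e-06). Lum, encoding the collagen-binding proteoglycan lumican, rose 1.90-fold in Foxd1 and stood at 1.28 in Six2 kidneys (difference 0.57 ± 0.12, adjusted p = 0.013). Meis2, a partner of HOX proteins, rose 1.55-fold in Foxd1 and stood at 1.08 in Six2 kidneys (difference 0.52 ± 0.09, adjusted p = 0.0020). Foxd1 went from 31.3, 34.6 and 31.1 CPM to 51.3, 40.0 and 43.7 CPM in the stromal line, whose kidneys keep 1 intact copy of it. In the progenitor line it went from 13.0 and 15.4 CPM to 12.0 and 12.3 CPM (difference 0.70 ± 0.15, adjusted p = 0.0095). Whether the knock-in allele added to the Foxd1 counts of the stromal line was not tested.

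Of 7 ligand and matrix genes of the stroma that the study singled out from spatial sections of Foxd1 T1 kidneys, 2 differed. The list comes from the same study and mouse line, and was chosen with earlier results of these data known. Fn1, the fibronectin gene, was at 661, 707 and 645 CPM in Foxd1 WT, 1031, 1030 and 1159 CPM in Foxd1 T1, 807 and 1141 CPM in Six2 WT and 913 and 1037 CPM in Six2 T1. The Foxd1 libraries were apart and the Six2 libraries overlapped. The log2 fold change was 0.68 ± 0.11 in Foxd1 (adjusted p = 0.00068) and 0.0022 ± 0.13 in Six2 kidneys (adjusted p = 0.997), and the difference of 0.68 ± 0.17 (adjusted p = 0.029) was 0.40 without Six2 WT replicate 2 (adjusted p = 0.052). It missed the threshold in 7 of 22 alternatives, with an adjusted p of up to 0.13 without Six2 T1 replicate 1. Thbs1, encoding thrombospondin, stood at 1.28 in Foxd1 and 0.787 in Six2 kidneys (difference 0.71 ± 0.10, adjusted p = 0.0008).

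Most of the Hox genes tested rose in Six2 kidneys. Hox genes encode the homeodomain proteins that set position along the body axis, and they lie in 4 clusters. Of 34 tested, 21 rose and none fell in Six2 T1, and 7 rose and 1 fell in Foxd1 T1. The effect was higher in Six2 for 22 genes and higher in Foxd1 for 1, Hoxb8, with 17 to 25 and 0 to 2 across the alternative fits and 19 and 0 without the 2 muscle-rich libraries. Hoxb8 missed the threshold in 10 of 22 alternatives, with a difference of 0.062 to 0.40. The gene that fell in Foxd1 was Hoxd3. The median log2 fold change was 0.70 in Six2 and 0.09 in Foxd1 kidneys.

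Hoxa13, at the end of its cluster that patterns digits and the hindgut, had the largest difference. It was at 0.212, 0.141 and 0.0941 CPM in Foxd1 WT, 0.164, 0.174 and 0.0557 CPM in Foxd1 T1, 0.125 and 0.131 CPM in Six2 WT and 7.35 and 5.89 CPM in Six2 T1. The Foxd1 libraries overlapped and the Six2 T1 libraries were 51.2-fold above their controls (adjusted p = 1.03e-07). The difference was -5.86, with a 95% confidence interval of -7.05 to -4.68 (adjusted p = 2.76e-05). Hoxd12, by contrast, rose in both lines, from 3.83, 3.37 and 4.38 CPM to 21.4, 20.6 and 17.9 CPM in Foxd1 and from 4.47 and 5.83 CPM to 48.8 and 47.4 CPM in Six2 kidneys. Its rise was 5.17-fold and 9.32-fold (difference -0.85 ± 0.18, adjusted p = 0.0096). Over the 22 alternatives the difference ran from -1.11 to -0.16 and missed the threshold in 1.

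Members of a cluster differed among themselves, and those named next are examples from each. Hoxa3, Hoxa5 and Hoxa6 rose 1.57-, 2.18- and 2.06-fold in Foxd1 and 2.42-, 3.15- and 3.12-fold in Six2 kidneys. Hoxc11 rose 1.62-fold and 2.80-fold. In the Hoxb cluster 8 genes were tested. Hoxb9, Hoxb5 and Hoxb3 rose 2.32-, 1.67- and 1.53-fold in Six2 kidneys, while their ratios in Foxd1 kidneys were 1.08, 0.789 and 0.941, although 52.9% of the exon length of Hoxb3 overlaps another gene, as does 27.1% of that of Hoxa3. Hoxd10 and Hoxd11, which the metanephros needs in combination with their paralogs, rose 1.52- and 1.88-fold in Six2 kidneys and stood at 0.803 and 1.06 in Foxd1 kidneys. The difference passed for each of these genes, although that of Hoxa6 missed the threshold in 9 of 22 alternatives.

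**Figure D4:**
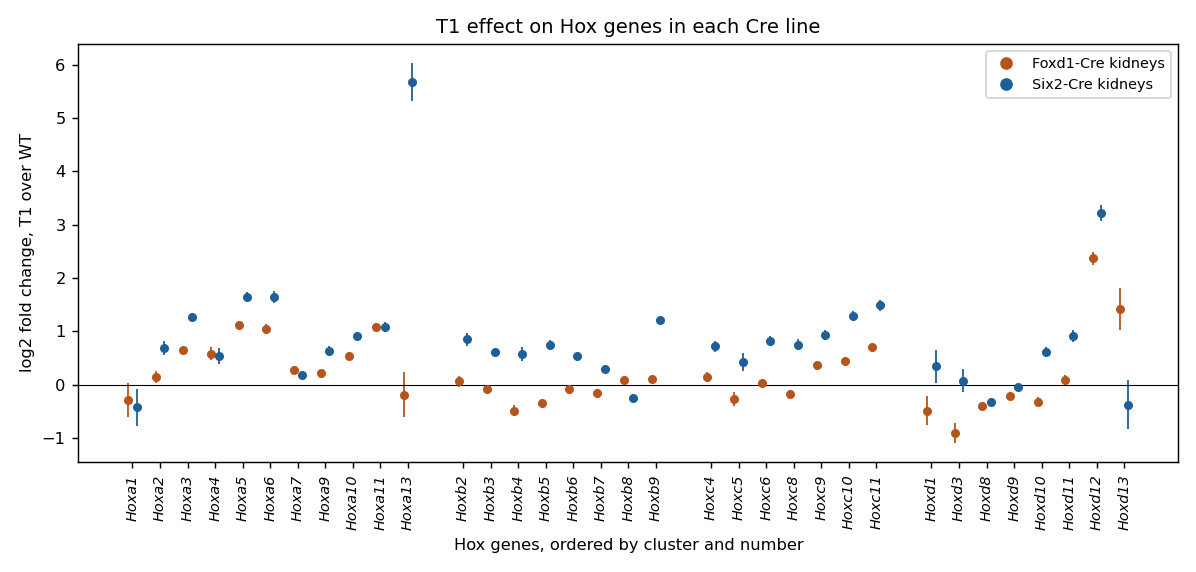
Log2 fold change, T1 over WT, with its standard error (y axis) for each tested Hox gene of the 4 clusters (x axis, by cluster and number) in Foxd1-Cre (orange) and Six2-Cre kidneys (blue). Six2 values lie above Foxd1 values for most genes, Hoxa13 stands at 5.68 in Six2 and -0.19 in Foxd1 kidneys, and Hoxd12 is high in both.

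Some genes that were low or close to silent in controls came up in Six2 kidneys alone, or in both lines and more in Six2 kidneys. Somatostatin (Sst), a peptide hormone, was at 0 and 0.0066 CPM in Six2 WT and at 9.94 and 10.3 CPM in Six2 T1, and at or under 0.107 CPM in all 6 Foxd1 libraries. March4, a membrane ubiquitin ligase, was at 0.0294 and 0.0131 CPM in Six2 WT and at 1.61 and 1.51 CPM in Six2 T1 (difference -6.92 ± 1.07, adjusted p = 0.0013). The calcium-binding Scgn rose in both lines, from 0.185, 0.193 and 0.0807 CPM to 0.314, 0.428 and 0.334 CPM in Foxd1 and from 0.0661 and 0.0657 CPM to 4.65 and 4.99 CPM in Six2 kidneys (difference -4.95 ± 0.48, adjusted p = 3.09e-05). Cnmd, the cartilage protein chondromodulin, went from 0.795, 0.720 and 0.793 CPM to 1.52, 1.39 and 1.21 CPM in Foxd1 and from 1.33 and 1.44 CPM to 21.5 and 18.8 CPM in Six2 kidneys (difference -3.03 ± 0.20, adjusted p = 3.15e-06).

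A different group came up in Foxd1 kidneys alone, or in both lines and more in Foxd1 kidneys. Slc17a6, a vesicular glutamate transporter of neurons, was at 0 counts in all 3 Foxd1 WT libraries and at 1.49, 1.06 and 1.00 CPM in Foxd1 T1, and at or under 0.0073 CPM in every Six2 library. Barx1, a homeobox gene of the stomach and tooth mesenchyme, was at 0.0265, 0.0257 and 0.148 CPM in Foxd1 WT and at 1.12, 0.963 and 1.197 CPM in Foxd1 T1, and at or under 0.0328 CPM in every Six2 library. Cdh9, a cadherin, rose from 0.0265, 0.0129 and 0.0269 CPM to 1.30, 1.00 and 1.23 CPM in Foxd1 and stood at 0.0294 and 0.0591 CPM in Six2 WT and 0.151 and 0.0672 CPM in Six2 T1 (difference 4.37 ± 0.82, adjusted p = 0.0049). The difference missed the threshold in 5 of 22 alternatives for Barx1, with an adjusted p of up to 0.377 without the 2 muscle-rich libraries, in 3 for Cdh9 and in 1 for Slc17a6. Zfhx4, a zinc finger homeobox gene, rose in both lines, 7.04-fold in Foxd1 and 2.04-fold in Six2 kidneys (difference 1.78 ± 0.28, adjusted p = 0.0016).

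Among genes that fell in Foxd1 kidneys alone were Esr2, encoding estrogen receptor beta, and Col6a5, a collagen VI chain. Esr2 went from 1.75, 1.76 and 1.80 CPM to 0.149, 0.174 and 0.376 CPM in Foxd1 and from 0.580 and 0.808 CPM to 1.07 and 0.874 CPM in Six2 kidneys (difference -3.40 ± 0.45, adjusted p = 0.00038). Col6a5 fell to 0.219 of its control in Foxd1 (adjusted p = 1.44e-05) and stood at 1.29 in Six2 kidneys (adjusted p = 0.28). Capn11, a calpain protease, had the largest difference of this class (-8.50 ± 1.74, adjusted p = 0.0084) but was at 0.185, 4.87 and 5.24 CPM in the 3 Foxd1 WT libraries, a spread wider than that of most genes. Its log2 fold change in Foxd1 kidneys was -5.79 (adjusted p = 0.0054). In Six2 kidneys it went from 0.962 and 0.0131 CPM to 2.99 and 3.33 CPM, a rise that was not called (2.72, adjusted p = 0.13). The difference of Capn11 missed the threshold in limma-voom (adjusted p = 0.093).

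Among genes that fell in Six2 kidneys alone, R3hdml and Cdhr1 had T1 libraries all below their controls in the progenitor line. R3hdml went from 9.23 and 11.8 CPM to 0.879 and 0.815 CPM in Six2, and from 21.6, 26.2 and 22.3 CPM to 19.97, 21.7 and 24.5 CPM in Foxd1 kidneys (difference 3.55 ± 0.19, adjusted p = 5.25e-07). Cdhr1, a protocadherin, fell to 0.0993 of its control in Six2 (adjusted p = 7.62e-07) and stood at 1.39 in Foxd1 kidneys (adjusted p = 0.052). Myoz1 and Actc1 are sarcomere genes of the same class. In tdT-positive cells sorted from Six2 kidneys, read further below, Myoz1 fell (log2 fold change -2.795, adjusted p = 5.09e-06) and Actc1 rose (1.32, adjusted p = 0.011). In whole kidneys both stood highest of their group in the 2 muscle-rich libraries. Myoz1 was at 2.36 CPM in Foxd1 T1 replicate 1 and 1.54 CPM in Six2 WT replicate 2, and Actc1 at 16.2 and 8.38 CPM. Their differences were 3.85 and 3.44 with all libraries. Without these 2 libraries they were 2.19 and 1.67, with adjusted p-values of 0.058 and 0.056, and the part of muscle RNA was not tested further. None of the 9 genes of the skeletal muscle list passed the interaction test, but 9 did with no low-count filter and 8 without Six2 WT replicate 1.

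In the reverse pattern, 26 genes fell in Foxd1 and rose in Six2 kidneys. Grem1, a secreted inhibitor of BMP signaling, was at 1.17, 1.84 and 1.87 CPM in Foxd1 WT, 0.687, 0.829 and 0.710 CPM in Foxd1 T1, 2.05 and 2.02 CPM in Six2 WT and 7.14 and 7.80 CPM in Six2 T1. The T1 libraries were all below their controls in the stromal line and above them in the progenitor line. Grem1 fell to 0.458 and rose to 3.67 of its control (difference -3.00 ± 0.28, adjusted p = 2.87e-05). Mmp13, a collagenase, fell to 0.523 of its control in Foxd1 and rose 3.13-fold in Six2 kidneys (difference -2.58 ± 0.41, adjusted p = 0.0015).

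Most macrophage markers rose in Six2 kidneys, and the difference between the lines passed for some. Of 12 macrophage markers, 9 rose in Six2 and none in Foxd1 kidneys, beside 2.97% and 2.62% of all tested genes. The effect was higher in Six2 for 4, beside 3.55%. All 12 differences were below 0, with a median of -0.43, beside 0.0071 over all tested genes. Cx3cr1, the fractalkine receptor, went from 15.3 and 15.5 CPM to 24.9 and 28.2 CPM in Six2 kidneys and from 13.2, 14.95 and 13.8 CPM to 14.8, 16.6 and 14.9 CPM in Foxd1 kidneys (difference -0.64 ± 0.12, adjusted p = 0.0060). Cd74, the invariant chain of MHC class II, rose 1.79-fold in Foxd1 and 4.39-fold in Six2 kidneys (difference -1.29 ± 0.19, adjusted p = 0.00084). The macrophage count was 0 without Six2 T1 replicate 2 and at most 7 in any alternative. Of 14 endothelial markers, 3 fell in Foxd1 and 1 in Six2 kidneys, beside 6.99% and 5.14% of all tested genes. The effect was higher in Six2 for 4, Sox17, Erg, Egfl7 and Tek (1 without the 2 muscle-rich libraries), beside 3.55%. Egfl7, a vessel-secreted factor, fell to 0.663 of its control in Foxd1 (adjusted p = 6.89e-06) and stood at 0.838 in Six2 kidneys (difference -0.34 ± 0.09, adjusted p = 0.027). Erg, Egfl7 and Tek missed the threshold in 7, 8 and 13 of 22 alternatives.

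Proliferation genes stood higher in Foxd1 T1 kidneys, by less than the fold threshold for all but 1. All 16 had positive log2 fold changes in the Foxd1 line, with a median of 0.29, and the median in the Six2 line was -0.08. The T1 effect was higher in Foxd1 for 8 and higher in Six2 for none, beside 4.82% and 3.55% of all tested genes. Mcm2, a subunit of the replicative helicase, was at 114, 127 and 120 CPM in Foxd1 WT, 175, 171 and 178.5 CPM in Foxd1 T1, 97.5 and 120 CPM in Six2 WT and 110 and 109 CPM in Six2 T1 (difference 0.53 ± 0.11, adjusted p = 0.011). The gene past the fold threshold was Top2a, a topoisomerase of dividing cells. Its log2 fold change was 0.59 ± 0.11 in Foxd1 kidneys (adjusted p = 0.0023). In Six2 kidneys its level was 0.918 of its control (difference 0.71 ± 0.18, adjusted p = 0.027). Top2a missed the threshold in 7 of 22 alternatives. The count of 8 rested on single libraries: it was 0 without Six2 T1 replicate 2, 14 without Six2 WT replicate 1, 3 without the 2 muscle-rich libraries and 4 with the Y-linked covariate.

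Many genes moved alike. No difference was called for 333 genes that fell and 139 that rose in both lines. Ugt3a2, a glycosyltransferase, went from 11.2, 12.5 and 16.98 CPM to 1.37, 0.896 and 0.975 CPM in Foxd1 and from 11.8 and 10.8 CPM to 0.440 and 0.656 CPM in Six2 kidneys. Its relative Ugt3a1 fell to 0.114 and 0.0689 of its control. Clec2h, a C-type lectin, fell to 0.0130 and 0.0265 of its control (adjusted p = 6.42e-07 in Foxd1 and 2.42e-06 in Six2). Sprr2f, a cornified envelope protein, went from 8.67, 8.998 and 5.04 CPM to 46.3, 43.0 and 48.8 CPM in Foxd1 and from 18.7 and 23.8 CPM to 133 and 136 CPM in Six2 kidneys, 6.07-fold and 6.31-fold. Sectm1b rose 7.85-fold and 9.73-fold. A difference that misses its threshold does not show equal effects, and the median standard error of the difference over all tested genes was 0.18 on the log2 scale.

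The classes were then read in libraries they were not chosen on, from tdT-positive cells sorted from E18.5 kidneys of the same Cre lines (4 T1 and 4 WT for Foxd1, with 2557443 to 3508381 counts, and 3 and 3 for Six2, with 76510702 to 92026288 counts). In sorted Foxd1 cells 462 of 12717 tested genes were up (3.63%) and 277 down (2.18%). In sorted Six2 cells 1392 of 22685 were up (6.14%) and 1256 down (5.54%). The depths differ, so shares are read against each sort's own background only.

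Of genes that rose in whole Six2 kidneys alone, 161 of the 204 tested (78.9%) were up in sorted Six2 cells and 29 genes (28.7% of those tested there) in sorted Foxd1 cells. Genes that fell in whole Six2 kidneys alone were down in sorted Six2 cells in 207 of 308 cases (67.2%) and in sorted Foxd1 cells in 3 of 186 (1.61%). Those up in whole Foxd1 kidneys alone were up in sorted Foxd1 cells in 40 of 74 cases (54.1%) and in sorted Six2 cells in 17 of 120 (14.2%). Those down in whole Foxd1 kidneys alone were down in sorted Foxd1 cells in 44 of 91 cases (48.4%) and in sorted Six2 cells in 10 of 207 (4.83%), where 50 of them (24.2%) were up.

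**Figure D5:**
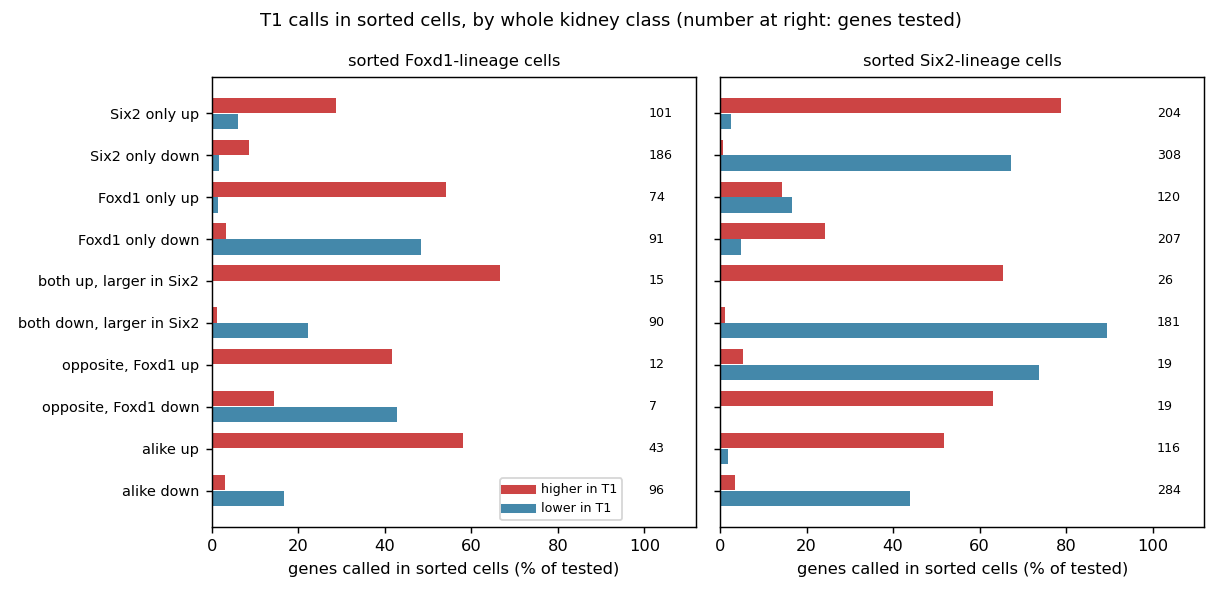
For each class of whole kidney genes (rows), the percentage of genes called up (red) or down (blue) in T1 among those tested in sorted Foxd1-lineage (left) and Six2-lineage cells (right); the number at the right of a row is the genes tested. Genes called in whole Six2 kidneys alone were mostly called in sorted Six2 cells (78.9% up, 67.2% down), and for those called in whole Foxd1 kidneys alone the shares in sorted Foxd1 cells were 54.1% up and 48.4% down.

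The genes with opposite effects were read in the same way. Of the 19 genes up in whole Foxd1 and down in whole Six2 kidneys, 14 were down in sorted Six2 cells, and of the 12 tested in sorted Foxd1 cells 5 were up and none down. Six2 itself had a log2 fold change of -1.29 in sorted Six2 cells (adjusted p = 1.55e-06) and of 0.04 in sorted Foxd1 cells (adjusted p = 0.94), against its rise of 0.75 in whole Foxd1 kidneys. Over the self-renewal list 9 of 17 were down and 1 up in sorted Six2 cells, and 2 were up and 1 down in sorted Foxd1 cells. Fn1 and Meis2 rose in sorted Foxd1 T1 cells as in the whole kidney, by a log2 fold change of 0.74 (adjusted p = 1.32e-06) and 0.85 (adjusted p = 4.85e-07), and Ret was below the filter there.

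For Hox genes the sorted Six2 cells went beyond the whole kidney, with all 34 up, and in sorted Foxd1 cells 15 of 27 were up and none down. Hoxd12 had a log2 fold change of 6.21 in sorted Foxd1 cells (adjusted p = 1.06e-13), against 2.37 in whole Foxd1 kidneys. In sorted Six2 cells its value was 3.70, the reverse of the order in whole kidneys. The other Hox genes called up in both lines and more in Six2 kidneys were Hoxa3, Hoxa5, Hoxa6 and Hoxc11. Their values in sorted Foxd1 and Six2 cells were 2.15 and 2.16, 3.09 and 2.88, 3.35 and 2.92, and 2.06 and 2.58. The sorts were not tested against each other. Hoxa13 had a log2 fold change of 6.24 in sorted Six2 cells (adjusted p = 3.57e-07). Hoxa13 was below the filter in sorted Foxd1 cells. Ren1 was down in both sorts, by -3.83 in Foxd1 (adjusted p = 2.42e-07) and -2.13 in Six2 cells (adjusted p = 0.023). Podocyte markers were down in sorted Six2 cells for 15 of 20 and in sorted Foxd1 cells for 3 of 20, and proximal tubule markers for 20 of 20 and for 5 of 13. None of the 16 proliferation genes was called in either sort. Their median log2 fold change was 0.0034 in sorted Foxd1 and 0.13 in sorted Six2 cells, beside -0.0040 and 0.015 over all genes tested there. Macrophage markers, of cells that come from neither lineage, were up in 9 of 12 in sorted Six2 and 7 of 11 in sorted Foxd1 T1 cells, and the part of other cells in these sorts was not tested.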

How the data were processed

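Polyadenylated RNA of whole kidneys was sequenced from stranded libraries. The authors aligned reads to mm10 with HISAT2 and used HTSeq, ignoring strand and with no mapping quality cutoff, so near-identical paralogs and overlapping genes may share counts. The annotation release is not given in the sources used here. The deposited tables hold raw counts for 54752 gene identifiers. Tables of sorted tdT-positive cells hold counts too, from low-input libraries. Of the deposited count columns, 6 (sorted cells of an earlier stage) were not used.

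Names and places come from GENCODE vM21 on GRCm38, which held 54723 identifiers. Low genes were removed by filterByExpr (minimum count of 10, total of 15). Counts were scaled by TMM and fitted in edgeR 4.0.16 (R 4.3.3) with 1 mean for each of 4 groups, leaving 6 residual degrees of freedom. Quasi-likelihood F tests were two-sided, with Benjamini-Hochberg adjustment over all tested genes; every adjusted p is edgeR's unless named otherwise. Standard errors and 95% intervals come from the F statistic. For a gene whose counts summed to 3 or fewer over a group no fold change is printed, a floor that covers counting error only. Such genes stayed in the class counts, medians and correlations with their fitted fold changes. Depth ran from 67137194 to 157266455 counts per library. The fit was tested on simulated data.

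Named genes are the allele checks, list members with a called difference (where fewer than 4 were called, the largest up to 4) and, for each class, up to 5 protein-coding autosomal genes of at least 1 CPM with the largest difference and libraries apart. Wnt4, Aqp2, Col4a4, Wt1 and the members named as not passing were chosen after their values were seen. The members and lists were chosen with earlier results of these data known. The sorted cells, fitted on their own libraries, were added after seeing the data, as were the T3 and muscle settings. Replicate numbers did not pair the libraries, since their deviations correlated at -0.0488 to 0.0019. Alternatives were other scalings and filters, limma-voom (limma 3.58.1), DESeq2 1.42.0, a replicate block, a Y-linked covariate, the Six2 T3 libraries and leaving out each library. Upstream sequences are RefSeq's in GRCm38.p6. Figures were drawn with matplotlib 3.10.9. Some list members are counted in their lists, and their own values are not reported here.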

Additional observations from a re-analysis of the deposited data

Results flagged for a closer look

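The T1 effect differed between the Cre lines, by the interaction test, for 1100 genes with a higher effect in Foxd1 and 810 with a higher effect in Six2 kidneys. The most divergent were 19 genes that rose in Foxd1 and fell in Six2 kidneys and 26 that did the reverse, each called in both lines. Of the first kind the largest differences on the log2 scale were those of Fam19a4 (6.09), Pck1 (3.23), Clrn1 (3.00), Chil4 (2.83) and En2 (2.58). Fam19a4, a secreted chemokine-like protein, went from 0.159, 0.129 and 0.148 CPM to 1.76, 2.09 and 1.18 CPM in Foxd1 and from 0.536 and 0.243 CPM to 0.0691 and 0.0588 CPM in Six2 kidneys. Of the second kind they were those of Grem1 (-3.00), Olfr56 (-2.85), Mmp13 (-2.58), Galnt9 (-2.48) and Gm10591 (-2.39). Gm10591 stood at 3.66, 5.09 and 4.33 CPM in Foxd1 WT, 2.24, 2.42 and 3.30 CPM in Foxd1 T1, 12.5 and 10.3 CPM in Six2 WT and 33.4 and 39.6 CPM in Six2 T1. The replicate groups held 2 or 3 libraries, too few for a test of outlying libraries.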

How the results depend on the processing

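Over 22 alternatives all 243 named genes with a called difference kept its direction, and 152 of them kept the call in each; of 32 values of other named genes in single lines, 30 kept their direction and 24 their call. The exceptions were Hbb-bs and Hbb-bt in Six2 kidneys, which had log2 fold changes of 0.067 and 0.16 with the Six2 T3 libraries in place of T1. No scaling moved the median gene by more than 0.0562 on the log2 scale.

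The counts of called differences (1100 higher in Foxd1, 810 higher in Six2) moved to 1655 and 1475 with no low-count filter. The first count moved to 1812 with DESeq2 and to 661 with a fold above 1.5 added. With the Six2 libraries of the other mutation, T3, in place of T1, the counts were 1906 and 1497. Leaving out single libraries gave 587 to 2174 and 327 to 1092. Without Six2 T1 replicate 1 the total was 1060 and without replicate 2 it was 914, of which 1011 and 892 were among the 1910; without Six2 WT replicate 1 it was 3266. A lone library left in a group is assumed to vary like the others. With no fold threshold the Foxd1 line had 2834 up and 3277 down and the Six2 line 1316 up and 2254 down. Genes up in Six2 kidneys ran from 441 to 739 without single libraries.

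Pearson's r between the lines was 0.0638 with no filter, 0.406 for genes over 1 CPM, 0.347 with the Y-linked covariate, 0.167 with T3, and 0.0634 to 0.282 without single libraries. The cause of these shifts was not tested, apart from the change in genes tested.

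With a replicate block within each Cre line 1786 differences were called, 1606 of them among the 1910, and none of the counts over all genes moved by over 1.5 times. Under the block 3 committing progenitor genes, against 0, had a higher effect in Foxd1, and 2 endothelial markers, against 4, a higher effect in Six2. With the Y-linked covariate 1628 were called, 1321 of them shared. X or Y chromosomes held 69 of the 1910. Depth limits genes near 3 counts, and with 2 Six2 libraries per group the precision rests on the spread pooled over all groups.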

Other observations

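Further lists are described here by their counts alone. All 10 interferon response genes had a T1 effect lower in Foxd1 than in Six2 kidneys, with a median difference of -0.76, but the difference passed the test for 1, Rsad2, an antiviral enzyme (-0.79, edgeR adjusted p = 0.0029), and for 1 to 8 across the alternative fits. All 14 endothelial differences had the same sign, with a median of -0.14. Of 43 collagen genes, 3 had a higher effect in Foxd1 and 3 in Six2, close to the 4.82% and 3.55% over all tested genes, with 2 to 17 and 2 to 7 across the alternative fits. None of the 9 red cell genes differed by the edgeR test at an adjusted p under 0.05. Of these genes 4 fell in Six2 and 1 fell in Foxd1 kidneys, beside 5.14% and 6.99% of all tested genes.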
